A study of Mus musculus with 6 samples.

Results

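The NMDA receptor subunit genes are the 7 mouse genes Grin1, Grin2a, Grin2b, Grin2c, Grin2d, Grin3a and Grin3b. They were taken by symbol, after the Ensembl identifiers of the count table had been mapped to symbols, and all 7 were found among 32371 genes. The rule that takes them reads symbols alone. RNA-Seq was done on 6 libraries of retinal cells from adult C57BL/6J mice aged 6 to 10 weeks, of both sexes, 3 per group. All mice received AAV2 by injection into the vitreous, carrying GFP in the control group and Ezh2-Y726D, a mutant form of the histone methyltransferase Ezh2, in the other, so that the control cells also had a virus and a transgene. Optic nerve crush (ONC) followed after 2 weeks, and 3 days later living cells positive for CD90.2, the product of Thy1, were sorted from dissociated retinas. The promoter that drove the transgenes and the number of mice behind a library are not given in the sources used here, so P values measure only the spread between these libraries.

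NMDA receptors are cation channels that open when glutamate and a co-agonist, glycine or D-serine, are both bound. Every such receptor contains GluN1, the product of Grin1, which binds the co-agonist. The glutamate-binding GluN2 subunits (Grin2a to Grin2d) set how fast the channel closes and how strongly magnesium blocks it, and the GluN3 subunits (Grin3a and Grin3b) bind glycine and lower calcium entry. In the retina, NMDA receptors are known from retinal ganglion cells (RGCs) and many amacrine cells, and excess NMDA kills RGCs.

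The members of the family carry a short coding motif at the end of the third membrane segment, which lines the gate of the channel. It is shown for 5 of the 7 genes because it is a part of the sequence that marks them as one family, and because the genes still differ in it at the DNA level, on which the separation of their reads depends. Each stretch of 39 bases lies within 1 coding exon (GRCm38 with GENCODE vM21, 5′ to 3′ on the strand of the gene), and the capitals mark the 21 bases of the motif.
Grin1: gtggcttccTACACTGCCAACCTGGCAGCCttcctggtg
Grin2a: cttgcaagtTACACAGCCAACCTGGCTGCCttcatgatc
Grin2c: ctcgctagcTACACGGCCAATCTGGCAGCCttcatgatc
Grin3a: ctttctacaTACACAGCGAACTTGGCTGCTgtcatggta
Grin3b: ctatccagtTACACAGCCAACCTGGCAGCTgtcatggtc

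The Grin1 stretch lies at chr2:25297193-25297231 on the minus strand, in exon 15 of 21. The GluN2 stretches are at chr16:9653441-9653479 in exon 10 of 14 of Grin2a and at chr11:115253743-115253781 in exon 11 of 15 of Grin2c, both on the minus strand. The Grin3a stretch lies at chr4:49770464-49770502 on the minus strand and the Grin3b stretch at chr10:79974630-79974668 on the plus strand, each in exon 3 of 9. Between any pair of these 5 genes, the capitals differed at 2 to 6 of the 21 bases. Over whole transcripts, a member shared at most 6 of its 31-base words with the other members, so that few reads could have been split among them.

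Reads shared with genes outside the family were more of a concern. Grin2a shared 11.9% of its 31-base words with the pseudogene Gm7328, which had between 0 and 6 counts per library. On the opposite strand, exons overlapped with Tmem259 over 32.1% of Grin3b, with the antisense transcript Grin1os over 13.5% of Grin1, and with the antisense transcript Gm45441 over 9.7% of Grin2d. The library kit marked strand, but whether the counting used it is not given in the sources used here. Tmem259 had 1954, 475 and 357 counts in the GFP libraries and 1854, 1258 and 2011 after Ezh2-Y726D, against 4 to 32 counts of Grin3b, and Gm45441 had 49, 10 and 8 counts in the GFP libraries and 43, 38 and 55 after Ezh2-Y726D, against 27 to 162 counts of Grin2d. The values of Grin3b and Grin2d are uncertain for this reason too.

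The libraries held 9333244 to 23782520 counts. The rRNA gene CT010467.1 took 6.59%, 50.9% and 52.2% of the counts in GFP libraries 1, 2 and 3 and 2.55% to 16.1% in the Ezh2-Y726D libraries, which left GFP 2 and 3 with the fewest counts for other genes. Values are therefore given as CPM, the counts of a gene relative to the library total scaled by edgeR's trimmed mean of M values (TMM). Ezh2, the overexpressed gene, was at 24.3 ± 1.88 CPM (SD, n = 3) in the GFP group and 65.2 ± 0.212 (SD, n = 3) in the Ezh2-Y726D group, a 2.76-fold difference in the direction of the labels. The labels call the cells RGCs. All 14 RGC markers on the list had enough counts to be tested, and their summed level was 683 to 702 CPM in the GFP libraries and 654 to 702 after Ezh2-Y726D. Markers of rods (5863 to 6063 CPM in the GFP libraries and 6372 to 6585 after Ezh2-Y726D) and of Müller glia (10897 to 11424 and 9742 to 10070) were also counted, so that the libraries did not hold RNA of RGCs alone, and a gene's level in this mixture cannot be assigned to a cell type.

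The first question was whether the subunit genes differed between Ezh2-Y726D and GFP 3 days after ONC. By edgeR's quasi-likelihood test, at a Benjamini-Hochberg adjusted P below 0.05 over 18138 genes, 6 of 7 were higher and 0 lower, where 13.9% of all genes tested were called higher and 13.6% lower. At an unadjusted P below 0.05, 7 were higher and 0 lower in edgeR and 5 higher and 0 lower in DESeq2. With a fold change over 1.5 as well, 5 of 7 were called, against 2.52% of all genes. This count was less stable, with 2 members (Grin2b and Grin2c) without GFP library 1 and with DESeq2, and 3 (Grin2b, Grin2c and Grin2d) without Ezh2-Y726D library 1 or 2. In 6 of 7 members every Ezh2-Y726D library exceeded every GFP library, which held for 19.7% of all genes. The median log2 fold change of the 7 was 0.64 relative to 0.00 for all genes tested. Grin3b passed the filter on low counts only through the Ezh2-Y726D libraries, with 0 of 3 GFP libraries over its limit, and so had to be higher there to be tested. Its place in all of these counts, that of members without overlap included, therefore carries no support. Among the remaining members, Grin2d was the only member whose groups overlapped. Of the 6 members over the limit in every library, 5 were called higher and 4 also by over 1.5-fold, with a median of 0.62. As the members differ in depth and in stability, they are described one by one.

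**Figure D1:**
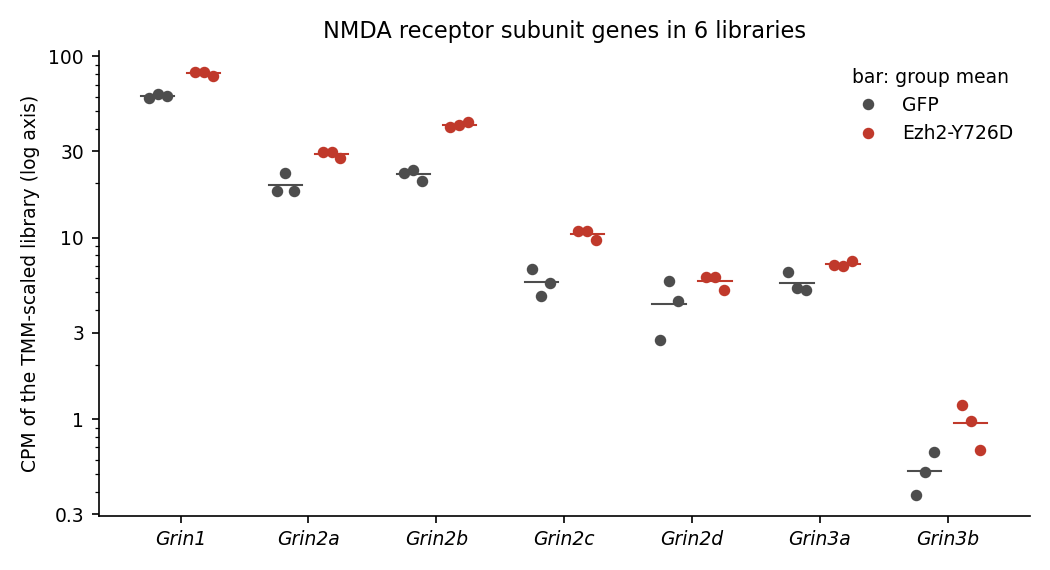
Level of each NMDA receptor subunit gene in each library, as CPM of the TMM-scaled library on a log axis, with 1 point per library and a bar at the group mean (n = 3 per group). The groups overlap for Grin2d only, where GFP library 1 (2.73 CPM) lies apart from the other GFP libraries, and the Grin3b points lie between 0.385 and 1.20 CPM.

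Grin1 encodes the obligatory subunit, and its level in GFP libraries 1 to 3 was 58.9, 61.8 and 60.8 CPM, relative to 82.1, 82.2 and 78.4 CPM in Ezh2-Y726D libraries 1 to 3. These values rest on 367 to 2317 counts per library. The groups were clearly apart, and the spread within each was small. The log2 fold change was 0.43 ± 0.049 (SE; 1.34-fold; adjusted P = 6.3e-08, edgeR's quasi-likelihood test), so Grin1 rose but did not reach 1.5-fold.

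Over all libraries, Grin2b rose most among the members called in every fit that left out 1 library. Without GFP library 1, Grin2c was higher (1.02, relative to 0.91 for Grin2b). Grin2b encodes GluN2B, which gives slow channel closing and prevails in immature neurons and at extrasynaptic sites. Its level was 22.9, 23.8 and 20.7 CPM in the GFP libraries and 40.7, 41.9 and 43.7 CPM after Ezh2-Y726D. All mutant libraries were well above all GFP libraries. The log2 fold change was 0.89 ± 0.065 (SE; 1.86-fold; adjusted P = 1.33e-11, edgeR), and it stayed between 0.86 and 0.92 whichever library was left out. With the trend over exon length removed, it was 0.76.

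For Grin2a, whose product GluN2A gives faster closing and is typical of mature synapses, the GFP libraries had 18.1, 22.7 and 18.1 CPM and the Ezh2-Y726D libraries 29.6, 29.8 and 27.5 CPM. GFP library 2 was the highest of its group and still below every mutant library. The log2 fold change of 0.59 ± 0.076 (SE; adjusted P = 4.9e-07, edgeR) corresponds to 1.51-fold, just past the 1.5-fold threshold. It fell below that threshold without GFP library 1 (0.49), GFP library 3 (0.57), Ezh2-Y726D library 1 (0.58) or Ezh2-Y726D library 2 (0.57). It was also below it with DESeq2 (0.58), with the length trend removed (0.49) and with library totals without CT010467.1 (0.57). Grin2a stayed called at adjusted P alone in each of these fits.

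Grin2c encodes GluN2C, a subunit with weak magnesium block. GFP libraries 1 to 3 had 6.73, 4.77 and 5.63 CPM, and the mutant libraries had 10.9, 10.9 and 9.71 CPM. The groups did not overlap, although GFP libraries 2 and 3 held only 37 and 34 counts. The log2 fold change was 0.78 ± 0.120 (SE; 1.71-fold; adjusted P = 8.62e-06, edgeR).

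Grin2d, the gene of the slowly closing GluN2D, gave a call that was lost without 1 library and also in other fits of all 6. GFP libraries 1, 2 and 3 had 2.73, 5.80 and 4.47 CPM (78, 45 and 27 counts), and the Ezh2-Y726D libraries had 6.08, 6.07 and 5.18 CPM. The GFP values were widely spread, and GFP 2 lay within the range of the mutant libraries. With all libraries, the log2 fold change was 0.64 ± 0.184 (SE; adjusted P = 0.00867, edgeR). Without GFP library 1 it was 0.14 with an adjusted P of 0.696, so that the edgeR call depended on that library. With all libraries kept, the call was also lost with DESeq2 (0.51, adjusted P = 0.156). The same held in edgeR after thinning to the shallowest library (0.58, adjusted P = 0.0974).

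Of the GluN3 genes, Grin3a had 6.45, 5.28 and 5.13 CPM in the GFP libraries and 7.13, 7.0 and 7.41 CPM after Ezh2-Y726D. The mutant libraries were all higher, with a narrow gap to GFP library 1. The log2 fold change of 0.27 (95% interval 0.03 to 0.51) had an adjusted P of 0.109 in edgeR's test and was not called. Without GFP library 1 it was 0.46 (adjusted P = 0.0609). A P that misses the threshold does not show that Grin3a was alike in both groups.

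Grin3b was scarcely detected. It had 11, 4 and 4 counts in the GFP libraries and 32, 20 and 20 after Ezh2-Y726D, which gave 0.385, 0.515 and 0.663 CPM relative to 1.20, 0.979 and 0.677 CPM. The highest GFP library and the lowest mutant library nearly met. The log2 fold change of 1.04 ± 0.383 (SE; adjusted P = 0.0421, edgeR) was numerically the highest of the family and also the least precise. The call was lost when any one of GFP library 1 (0.69, adjusted P = 0.425), GFP library 2 (1.09, adjusted P = 0.0758), Ezh2-Y726D library 1 (0.82, adjusted P = 0.182) or Ezh2-Y726D library 2 (1.02, adjusted P = 0.0954) was left out, and with DESeq2 (0.98, adjusted P = 0.284).

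**Figure D2:**
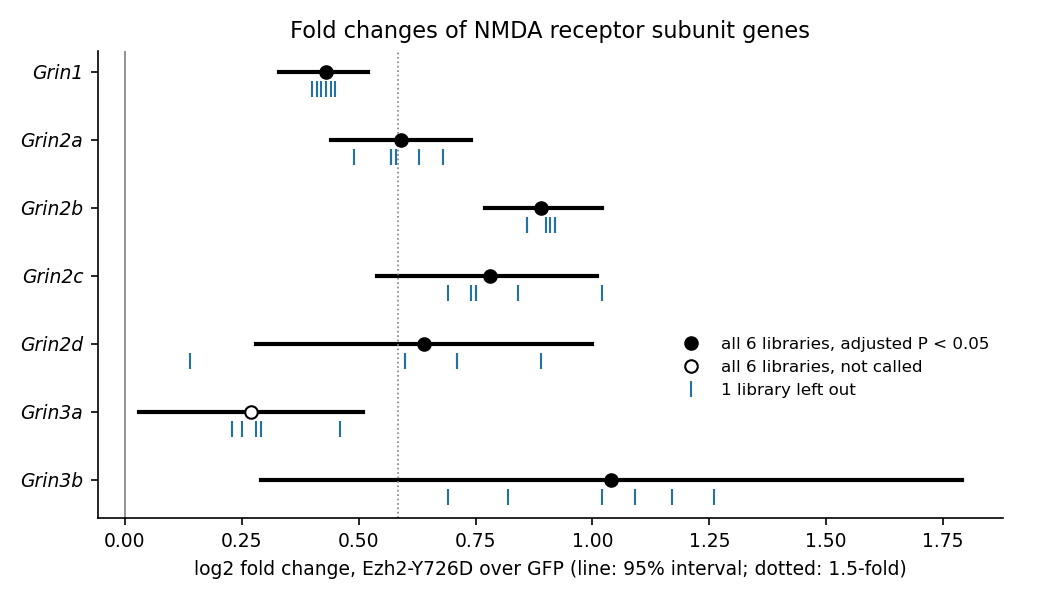
Log2 fold change of each subunit gene, Ezh2-Y726D over GFP, from edgeR. Points with lines are the estimates with their 95% intervals over 6 libraries (filled, adjusted P below 0.05), blue ticks are estimates with 1 library left out, and the dotted line is 1.5-fold. The ticks of Grin1 and Grin2b lie close to the estimate, while those of Grin2d reach down to 0.14.

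Grin1, Grin2a, Grin2b and Grin2c were thus the members that passed in every fit that left out 1 library, and with DESeq2. Without GFP library 1, these 4 were the only members called. A fit without GFP libraries 2 and 3, the pair with the most rRNA counts, was added after the data were seen. It called 5 members, and Grin3b was no longer among them (adjusted P = 0.0635). In this fit Grin2d was at 1.07 and Grin3a at 0.16.

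To compare levels between members, CPM was divided by the exon length in kb. In the GFP group, Grin1 was first at 6.24 ± 0.154 CPM per kb (SD, n = 3). It was followed by Grin2c (1.13) and Grin2a (1.09), whose library ranges overlapped, and by Grin2b (0.904). Grin2b overlapped with Grin2d (0.651) and Grin2d with Grin3a (0.458), and Grin3b was last at 0.158.

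After Ezh2-Y726D the order among the GluN2 genes was Grin2c (2.09 CPM per kb), Grin2b (1.7), Grin2a (1.62) and Grin2d (0.867). Grin2b and Grin2a overlapped in their library ranges, and every other neighbour was separate. Grin1 was again first at 8.34 ± 0.222 CPM per kb (SD, n = 3), followed at a distance by the GluN2 genes, with Grin3a (0.585) and Grin3b (0.289) last. The exon length counts every exon of a gene once, long untranslated ends included, so the values per kb understate genes of which mostly shorter transcripts are made.

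The make-up of the GluN2 genes was read as the share of each in their summed level per kb. Grin2b made up 25.0%, 23.7% and 23.0% of it in GFP libraries 1 to 3 and 25.7%, 26.3% and 29.3% in the Ezh2-Y726D libraries. Grin2a went the other way, from 27.5%, 31.3% and 27.7% to 25.9%, 25.9% and 25.6%. Neither pair of ranges overlapped, but the gap between GFP library 1 and Ezh2-Y726D library 1 was under 1 percentage point for Grin2b. Grin2c and Grin2d varied too much among the GFP libraries (23.4% to 36.3% and 11.2% to 21.5%) for a shift to be read.

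**Figure D3:**
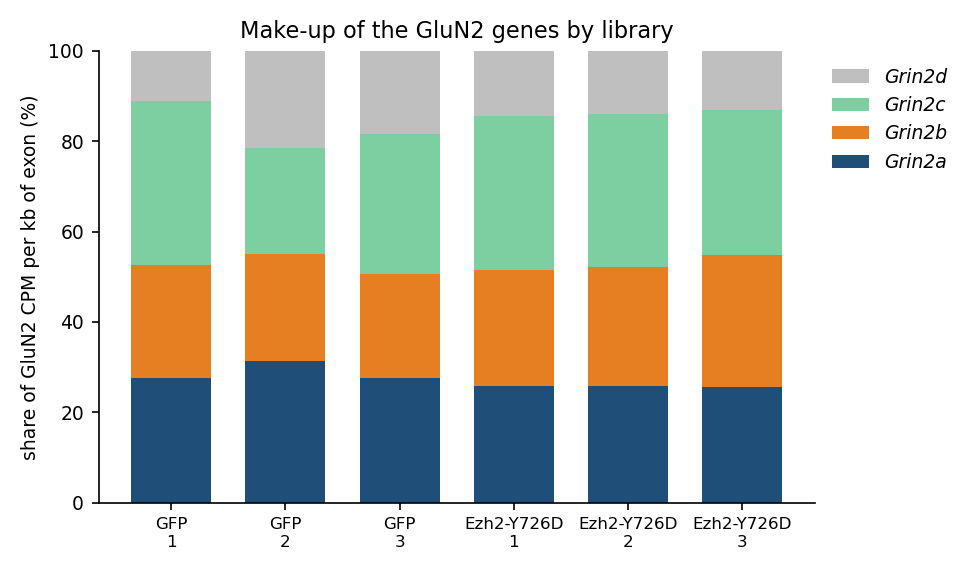
Share of each GluN2 gene in the summed GluN2 CPM per kb of exon, in percent, by library. Within the GFP group the shares of Grin2c and Grin2d differed between libraries by more than the group means did, whereas their SDs within the Ezh2-Y726D group were 1.01 and 0.75 percentage points.

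Ratios between a pair of members within a library do not depend on how libraries are scaled. With 3 libraries per group, the exact permutation test cannot give a P below 0.10, so none of the 7 ratios compared could pass a threshold of 0.05. The log2 ratio of Grin2b to Grin2a counts was 0.33, 0.07 and 0.20 in the GFP libraries and 0.46, 0.49 and 0.67 after Ezh2-Y726D. The log2 ratio of Grin2b to Grin1 was -1.36, -1.37 and -1.55 relative to -1.01, -0.97 and -0.84. Neither ratio overlapped between groups. The differences were 0.34 ± 0.10 for Grin2b to Grin2a and 0.49 ± 0.08 for Grin2b to Grin1 (SE), each with an exact two-sided permutation P of 0.10, the smallest possible, and 0.35 after Benjamini-Hochberg adjustment over the 7 ratios.

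For the other 5 ratios the groups overlapped. Grin2a to Grin1 differed by 0.15 (exact permutation P = 0.40), Grin2c to Grin2a by 0.31 (P = 0.40) and Grin2c to Grin2d by 0.42 (P = 0.40). For Grin2d to Grin2a the difference was -0.10 and for Grin3a to Grin1 it was -0.07 (exact permutation P = 0.80 for both). GFP library 1 had the lowest Grin2d and the highest Grin2c of its group. Leaving out 1 library moved these differences widely. Without GFP library 1, Grin2c to Grin2a was at 0.49, Grin2c to Grin2d at 0.84, Grin2d to Grin2a at -0.35 and Grin3a to Grin1 at 0.05. Without GFP library 2, Grin2a to Grin1 was at 0.24, Grin2c to Grin2a at 0.08, Grin2c to Grin2d at 0.05, Grin2d to Grin2a at 0.03 and Grin3a to Grin1 at -0.12. Without GFP library 3, Grin2d to Grin2a was at 0.01, Grin3a to Grin1 at -0.13 and Grin2a to Grin1 at 0.09. Without Ezh2-Y726D library 1, 2 or 3 the signs of these 5 differences held. No direction is read from them.

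**Figure D4:**
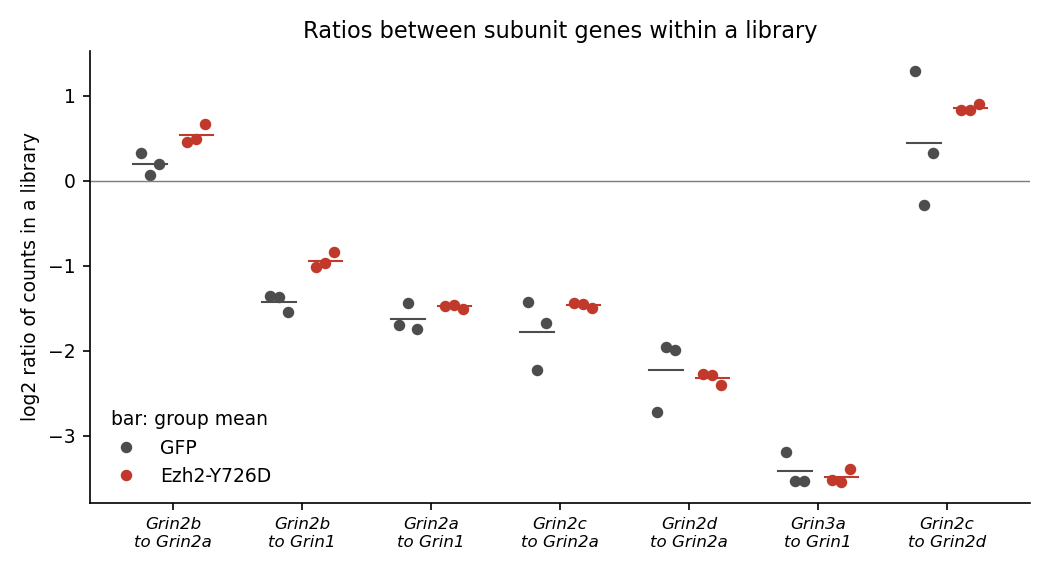
Log2 ratio of the counts of a pair of subunit genes in each library, with 1 point per library and a bar at the group mean. The points of the groups are separate for Grin2b to Grin2a and for Grin2b to Grin1 and overlap for the other 5 ratios.

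For each member, the well-counted genes whose level followed it most closely over the 6 libraries, up to 3, are named out of 13757 genes. The correlations describe 6 points that fall into 2 groups and share the depth of each library, and they carry no test. For Grin1 they were Chrnb3, a nicotinic receptor subunit, Dpf3 and Tmem130 (r = 0.998 each). Grin2b was followed by Lrrtm4, a synaptic adhesion protein (r = 1.000), Ripor2 and the transcription factor gene Pou3f3 (r = 0.999 both). Kcnj9 (r = 0.997) and Asap1 (r = 0.996) were among the closest to Grin2a, and Rims3 (r = 0.998), Phactr3 and Hbegf (r = 0.997 both) to Grin2c.

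The nearest genes of the remaining members were Zfp605 (r = 0.995) and Zfp808 (r = 0.990) for Grin2d, Sel1l3 (r = 0.996), Tmem147os (r = 0.995) and 0610037L13Rik (r = 0.993) for Grin3a, and Ddx19b, Paip2b (r = 0.993 both) and Mboat7 (r = 0.992) for Grin3b. Among the members themselves, r ran from 0.14 between Grin2d and Grin3a to 0.97 between Grin1 and Grin2b. Grin1, Grin2a and Grin2b were at 0.95 to 0.97 with each other. Grin2d had an r of 0.14 to 0.78 with the other members.

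Promoter windows of 250 bases upstream of the RefSeq gene start (GRCm38.p6) were at hand for 4 members, Grin1, Grin2c, Grin2d and Grin3b. Polycomb repressive complex 2, of which Ezh2 is the catalytic subunit, is known to occupy CpG-rich promoters, and the windows of Grin1 and Grin2c are shown as those with the most CpGs of the 4, a choice made with the fold changes known. The Grin1 window is chr2:25319188-25319437 and the Grin2c window chr11:115267244-115267493, printed 5′ to 3′ on the minus strand with each CpG in capitals.
Grin1 promoter: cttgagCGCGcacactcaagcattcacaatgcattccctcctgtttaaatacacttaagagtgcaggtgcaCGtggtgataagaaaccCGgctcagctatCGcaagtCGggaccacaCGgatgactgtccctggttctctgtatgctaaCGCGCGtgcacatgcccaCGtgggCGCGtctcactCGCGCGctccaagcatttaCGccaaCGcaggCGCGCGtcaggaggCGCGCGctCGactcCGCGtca
Grin2c promoter: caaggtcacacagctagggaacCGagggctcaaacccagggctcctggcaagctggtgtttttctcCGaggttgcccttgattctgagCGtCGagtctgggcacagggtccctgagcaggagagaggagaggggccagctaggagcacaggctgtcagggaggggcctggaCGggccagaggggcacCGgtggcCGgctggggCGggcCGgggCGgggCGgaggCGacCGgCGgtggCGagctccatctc

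The windows held 27 CpGs for Grin1, 15 for Grin2c, 9 for Grin2d and 2 for Grin3b, relative to a median of 6 over 32851 windows. The GC box GGGCGG, searched on both strands with overlaps allowed, was found 3 times in Grin2c and in none of the other members, while 32.7% of all windows hold one. Of the binding motif of REST, a repressor of neuronal genes, the left part TTCAGCACC was found in no member (0.3% of all windows) and the right part GGACAG once each in Grin1, Grin2d and Grin3b (18.7% of all windows). These letter matches describe the windows and say nothing about binding.

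The other genes of the pathway were read from 6 lists, with 13.9% of all genes tested called higher and 13.6% lower as the background. Of the 11 AMPA, kainate and delta receptor subunit genes, the other ionotropic glutamate receptors, 8 rose and 1 fell (median log2 fold change 0.30). The level of Grik2, a kainate receptor subunit, went from 30.2, 33.9 and 28.7 CPM under GFP to 59.6, 61.8 and 61.0 CPM after Ezh2-Y726D (log2 fold change 0.98 ± 0.060, SE). Gria3 and Gria4, AMPA receptor subunits, rose by 0.64 and 0.58 on the log2 scale. Grik1, a kainate subunit known from OFF cone bipolar cells, fell from 134, 145 and 137 CPM to 83.6, 85.2 and 81.8 CPM (log2 fold change -0.73).

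Of the 32 genes of the postsynaptic scaffold and of receptor trafficking, 21 rose and 1 fell (median log2 fold change 0.29). Shank3, a scaffold protein below the receptor complex, rose from 10.4, 11.3 and 8.61 CPM to 16.8, 13.8 and 15.8 CPM (log2 fold change 0.59). Fam81a (0.83) and Shank1 (0.46), another scaffold protein, rose as well. The member that fell was Lin7c (-0.14), an adaptor that links scaffold proteins to receptors.

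Among 31 kinases, phosphatases and calcium effectors of NMDA receptor signaling, 15 rose and 4 fell (median log2 fold change 0.14). Nos1, the nitric oxide synthase that is activated by calcium through NMDA receptors, had the largest rise, from 2.0, 2.7 and 0.994 CPM to 4.20, 4.89 and 6.19 CPM (log2 fold change 1.37 ± 0.208, SE). Nos1 is also known as a marker of a subset of amacrine cells. Rasgrf1 (0.58), a Ras activator bound to the receptor, and the calcium-dependent kinase gene Camk4 (0.40) rose too. The largest falls were those of Ptk2b (-0.64), a calcium-dependent tyrosine kinase, the protease gene Capn1 (-0.56) and Rasgrf2 (-0.21).

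Of the 16 genes of co-agonist synthesis and transport 14 could be tested, of which 3 rose and 4 fell (median log2 fold change 0.06), and DESeq2 called 4 in all. Slc6a9, the glycine transporter of amacrine cells, rose from 187, 170 and 154 CPM to 304, 294 and 269 CPM (log2 fold change 0.74), and Slc6a5, the other glycine transporter, rose by 0.81. Slc38a5 (1.14), an amino acid transporter, rested on 0.258 to 1.20 CPM. The amino acid transporter gene Slc1a5 (-0.77) and Phgdh (-0.47), the first enzyme of serine synthesis, and Shmt2 (-0.21), which interconverts serine and glycine, fell.

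Of 12 genes of glutamate release, uptake and recycling, 2 rose and 3 fell (median log2 fold change -0.08). The neuronal glutamate transporter gene Slc1a1 (0.72) and the vesicular transporter gene Slc17a8 (0.42) rose. Slc1a7 (-0.32), Slc17a7 (-0.27), the vesicular glutamate transporter of photoreceptors and bipolar cells, and Slc1a3 (-0.14), the glutamate transporter of Müller glia, fell. Of the 10 genes of the REST complex, which is known to repress neuronal genes, 1 fell (Rcor1, -0.20) and 0 rose (0 also at an unadjusted P below 0.05 in edgeR and in DESeq2), and this call was lost without GFP library 1, GFP library 2 or Ezh2-Y726D library 2 and with DESeq2. Without GFP library 1, only 3 genes of the glutamate list and 1 RGC marker were called. With 2 of 12 glutamate genes and 3 of 14 co-agonist genes higher, 3 of 12 and 4 of 14 lower, and 1 of 10 genes of the REST complex lower, no direction is read for these lists.

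**Figure D5:**
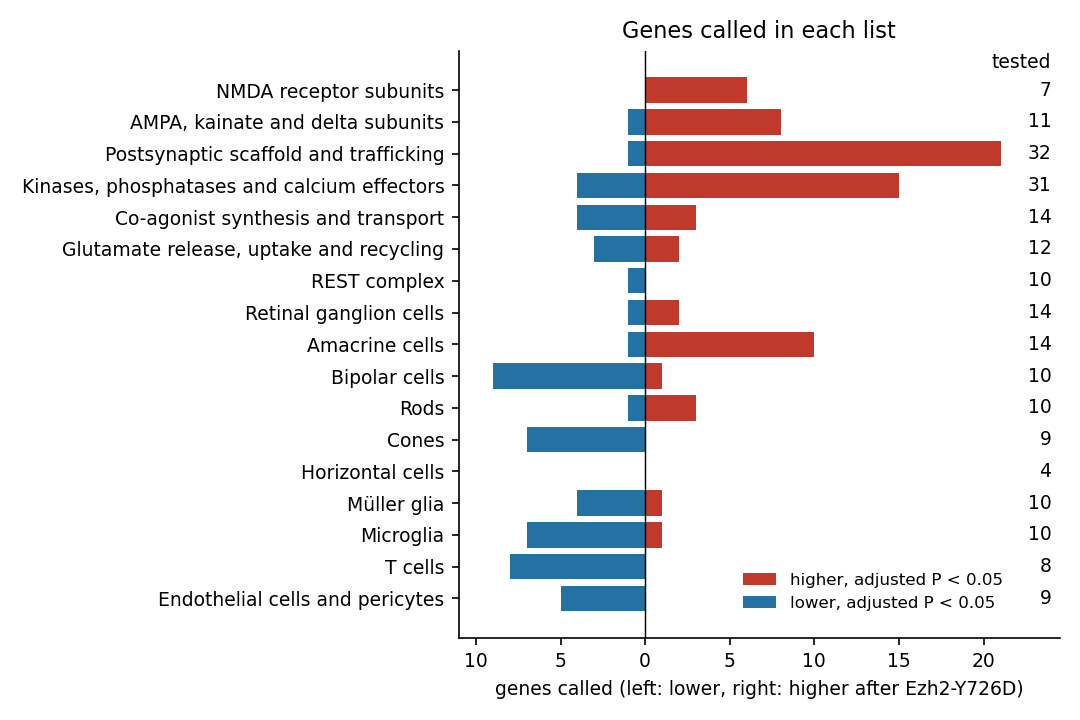
Number of genes called at an adjusted P below 0.05 by edgeR in each list, lower to the left and higher to the right, with the number tested at the right edge. Rises prevail among ionotropic glutamate receptor subunits, scaffold genes, amacrine markers, and kinases, phosphatases and calcium effectors. Falls prevail among markers of bipolar cells, cones, microglia, T cells, Müller glia, and endothelial cells and pericytes. No prevailing direction is read in the other lists. Of all genes tested, 13.9% were called higher and 13.6% lower.

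Markers of other cell types moved between the same groups, where 13.9% of all genes tested were called higher and 13.6% lower. Of the 16 amacrine markers 14 could be tested, and 10 rose and 1 fell, among them Gad1 (0.69) and Slc32a1 (0.70), which serve GABA synthesis and vesicular loading. Their summed level was 1956 to 2067 CPM in the GFP libraries and 2805 to 2884 CPM after Ezh2-Y726D, with a median log2 fold change of 0.47. Chat and Slc18a3, markers of starburst amacrine cells, had too few counts to be tested. Slc6a9 is on this list and on the co-agonist list.

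Of the 14 RGC markers, 2 rose (Pou4f1, 0.41, and Thy1, 0.13), 1 fell (Isl1, -0.58) and 11 were not called. The markers had a median log2 fold change of -0.07, and the product of Thy1 was used to sort the cells. With 13.9% of all genes tested called higher and 13.6% lower, no direction is read for the RGC markers. Falls were called for 9 of 10 bipolar markers (summed level 1005 to 1017 CPM relative to 728 to 752 CPM), 7 of 9 cone markers (454 to 476 relative to 293 to 311 CPM), 7 of 10 microglial markers (902 to 1004 relative to 569 to 670 CPM) and 8 of 8 T cell markers (129 to 132 relative to 74.5 to 81.7 CPM). Of the same lists, 1 bipolar marker (Tacr3, 0.35) and 1 microglial marker (P2ry12, 0.33) rose. Of 10 rod markers 3 rose and 1 fell, of 10 markers of Müller glia 1 rose and 4 fell, and of 9 markers of endothelial cells and pericytes 0 rose and 5 fell (1130 to 1203 relative to 1039 to 1102 CPM). Without GFP library 1 or Ezh2-Y726D library 2, 3 of these 9 were called, and without Ezh2-Y726D library 3, 2 rod markers were called. In such bulk libraries, fewer cells of a type and less RNA per cell cannot be told apart. The part of these shifts in the rise of Grin1, Grin2a, Grin2b and Grin2c was not tested. The log2 fold changes of the 14 amacrine markers ran from -0.15 (Prox1) to 0.74 (Slc6a9), beside 0.43 for Grin1, 0.59 for Grin2a, 0.78 for Grin2c and 0.89 for Grin2b.

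Among the edgeR scalings compared, only library totals that include CT010467.1 changed the number of members called. This number was 6 with TMM, with relative log expression (RLE) size factors and with TMM computed without CT010467.1. Scaling by library totals, which include CT010467.1, moved the median over all genes to a log2 fold change of 0.49 and left 0 members called (6 at an unadjusted P below 0.05), with 46 genes higher and 19 lower in all. Relative to that median the members were at 0.44 for Grin1, 0.59 for Grin2a, 0.91 for Grin2b, 0.80 for Grin2c, 0.55 for Grin2d, 0.29 for Grin3a and 0.93 for Grin3b. When the totals left out CT010467.1, 6 members were called again.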

How the data were processed

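RNA-Seq libraries were made from total RNA of sorted retinal cells with a stranded kit. The table deposited by the authors holds raw gene counts in whole numbers, and the submitters' processing notes name STAR 2.7.0d and GRCm38. The counting tool, its strand setting and the annotation are not given in the sources used here. Each of the 6 columns was assigned to its sample by name, and 0 columns were left unused. Symbols were found for 32325 of 32371 identifiers. Coordinates, exon lengths and overlaps are from GENCODE vM21 on GRCm38, which may differ from the annotation behind the counts, and promoters from RefSeq.

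From the deposited counts, CPM of TMM-scaled libraries (factors 0.647 to 1.31) and fold changes were computed with edgeR 4.0.16 in R 4.3.3. Genes passed filterByExpr (10 counts, total of 15), and quasi-likelihood P values were adjusted by Benjamini-Hochberg over 18138 genes. The SE was taken from the fold change and the F statistic, as log2 fold change over root F, and 95% intervals are 1.96 SE to either side. Ratios were taken after adding 0.5 to each count. Intervals and SEs are narrow where counts are many: Grin1 had at least 367 counts in each library and Grin3b at most 32. Each library counted as 1 sample. Libraries of a group differed by more than sampling noise (chi-square per degree of freedom 1.49 to 3.03), which does not show that they came from separate mice. The procedure was tested on simulated data.

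The members, lists and tests were chosen with earlier results of these data known. Named genes are the members, Ezh2, CT010467.1, up to 3 genes with the largest rise and fall called in each pathway list, and the 3 genes closest to each member among genes with a mean of at least 50 counts. Some further items are left out here. Individual markers and the genes that overlap or share sequence with a member were named after their values were seen. Alternatives were other scalings and filters, DESeq2 1.42.0, removal of GC or length trends (lowess span 0.3), thinning to the shallowest library, a replicate block and leaving out libraries.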

Additional observations from a re-analysis of the deposited data

How the results depend on the processing

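The log2 fold changes of all 7 members stayed positive in every fit in which they were tested. Scaling by library totals gave 0.93 for Grin1, 1.09 for Grin2a, 1.40 for Grin2b, 1.29 for Grin2c, 1.04 for Grin2d, 0.78 for Grin3a and 1.42 for Grin3b, with 0 members called at adjusted P values of 0.0817 or more in edgeR, and 0 genes called in each pathway and marker list except for 1 among the kinases. DESeq2 called 4 members, with Grin2d at 0.51 and Grin3b at 0.98, and it called 4 genes of co-agonist synthesis and transport and 0 of the REST complex. Thinning left Grin2d at 0.58 (adjusted P = 0.0974), 0 genes of the REST complex and 3 endothelial and pericyte genes. Grin3b lost its call without a filter (1.05, adjusted P = 0.055; 0 genes of the REST complex) and with the GC trend removed (0.97, adjusted P = 0.0561), and it could not be tested with at least 10 counts in every library or after thinning.

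Leaving out 1 library gave 0.14 to 0.89 for Grin2d, 0.69 to 1.26 for Grin3b, 0.23 to 0.46 for Grin3a and 4 to 6 members called. Calls ranged from 3 to 7 for glutamate release, uptake and recycling, 1 to 4 for RGC markers, 2 to 4 for rod markers, 0 to 1 for the REST complex and 3 to 5 for endothelial cells and pericytes. Without GFP libraries 2 and 3, a fit that assumes the lone GFP library to vary like the others, Grin3b was at 1.28 and not called, Grin2d at 1.07 and Grin3a at 0.16. The ratio differences were then 0.20 for Grin2b to Grin2a, -0.30 for Grin3a to Grin1 and, with the sign reversed, -0.03 for Grin2c to Grin2a, 0.40 for Grin2d to Grin2a and -0.43 for Grin2c to Grin2d. The causes of these differences between settings were not tested.

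Same-numbered libraries deviated together only weakly (correlations 0.22, 0.07 and 0.07), and nothing in the labels pairs them, although each of the 6 libraries correlated best with its own number, a hint from the data and not the design. With the replicate block, 6 members were called and the log2 fold changes were 0.43 for Grin1, 0.60 for Grin2a, 0.88 for Grin2b, 0.83 for Grin2c, 0.62 for Grin2d, 0.29 for Grin3a and 1.14 for Grin3b.

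Counts were few for Grin3b, with 4 in GFP libraries 2 and 3, and for Grin2d, with 27 to 78 in the GFP libraries. The outlying Grin2d value (2.73 CPM) was in GFP library 1, which had the most Grin2d counts of its group. The part of depth in the spread of Grin2d was not tested. In the exact permutation test used for them, ratios between members cannot reach P below 0.10 with 3 libraries per group.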
